A study of Mus musculus with 10 samples.

Results

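The genes of the proteasome, the protease that degrades ubiquitin-tagged proteins, were examined in mouse lung mRNA. They were taken as all genes whose symbol starts with Psma, Psmb, Psmc, Psmd, Psme, Psmf or Psmg and a number. Of 57 such symbols in the RefSeq gene table, 50 had a value in all 10 libraries, among 17465 genes that did. Of the 7 others, 6 were pseudogenes, and Psmb11, the thymus-specific catalytic subunit, had values in the C libraries alone, where it was listed at 0. The libraries were 3 labelled HE, 4 labelled Hy and 3 labelled C. All 10 carried the genotype WT and one and the same treatment label, which speaks of exercise slowing pulmonary hypertension caused by hypoxia. The series title names wild-type mice, mice with hypoxia-induced pulmonary hypertension, and such mice given aerobic exercise, but no label says which prefix stands for which, so the groups keep the names HE, Hy and C. The ages and the duration and dose of any treatment are not given in the labels used here. The labels do not state whether each library is a mouse of its own. A p-value therefore speaks to the scatter among the libraries at hand, which may be technical.

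The proteasome consists of a barrel, the 20S core particle, and caps that feed it. Outer rings of alpha subunits gate the barrel, and inner rings of beta subunits hold the catalytic sites. The 19S regulatory cap binds ubiquitin chains, removes them and unfolds the substrate with a ring of ATPases. In leukocytes and in cells exposed to interferon, Psmb9, Psmb10 and Psmb8 take the place of the constitutive catalytic subunits Psmb6, Psmb7 and Psmb5, which gives the immunoproteasome, a source of peptides for MHC class I. Other activators, PA28 and PA200, can take the place of the 19S cap.

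By class, the 50 genes were 8 alpha subunits (Psma1 to Psma8), 7 constitutive beta subunits (Psmb1 to Psmb7) and 3 immunoproteasome subunits (Psmb8, Psmb9 and Psmb10). The 19S cap gave 6 ATPases (Psmc1 to Psmc6), 11 non-ATPase subunits and 3 assembly chaperones (Psmd5, Psmd9 and Psmd10). A further 6 were activators or inhibitors (Psme1, Psme2, Psme2b, Psme3, Psme4 and Psmf1) and 4 were assembly chaperones of the core (Psmg1 to Psmg4). Psmc3ip and Psme3ip1 match the symbol rule but encode no proteasome subunit. The filter on low counts kept 49 of them. It removed Psma8, the alpha subunit of the testis, which had from 1 to 7 counts in a library. The 31 constitutive subunits of core and cap that were tested had from 366 to 2616 counts in a library. Psme2b is a near-identical copy of Psme2 and shared fractional counts with it, from 0 to 6.80 CPM (counts scaled by library size with TMM factors), so its values are uncertain. Of the 50, 9 genes overlap a neighbour, and without a stated strand their reads cannot be told apart from the neighbour's, among them Psme1 with Emc9 and Psme4 with Erlec1.

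Psmb9 and Psmb8 lie side by side in the MHC class II region with the genes of the peptide transporter, Tap1 and Tap2. On GRCm38.p6 the order was Psmb9 (chr17:34182030-34187330), Tap1 (chr17:34187556-34197225), Psmb8 (chr17:34198195-34201454) and Tap2 (chr17:34204479-34216321), 4 genes within 34292 bases. The bases before the start of Psmb8 and Psmb9 are shown because these genes were higher in both HE and Hy than in C, and those of Psmb5 because Psmb8 replaces its product. They are RefSeq's sequence on GRCm38.p6, 250 bases each, at chr17:34197945-34198194 (plus strand), chr17:34187331-34187580 (minus strand) and chr14:54617996-54618245 (minus strand). Capitals mark matches, on either strand, to 5 motifs: the interferon-stimulated element core, TTCNNNGAA (gamma-activated site), TGACNNNGC (antioxidant or Maf element), CCAAT and GGGCGG (GC box).
Psmb8: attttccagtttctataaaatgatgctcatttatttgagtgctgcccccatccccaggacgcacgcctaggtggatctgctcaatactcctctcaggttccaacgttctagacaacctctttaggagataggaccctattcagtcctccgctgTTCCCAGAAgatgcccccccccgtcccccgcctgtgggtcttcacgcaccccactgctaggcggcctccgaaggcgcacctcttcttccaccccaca
Psmb9: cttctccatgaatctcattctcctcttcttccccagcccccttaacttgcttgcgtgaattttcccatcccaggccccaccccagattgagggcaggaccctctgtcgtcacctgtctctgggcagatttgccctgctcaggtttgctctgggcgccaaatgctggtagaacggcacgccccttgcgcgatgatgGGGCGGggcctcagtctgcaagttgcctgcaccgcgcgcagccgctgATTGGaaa
Psmb5: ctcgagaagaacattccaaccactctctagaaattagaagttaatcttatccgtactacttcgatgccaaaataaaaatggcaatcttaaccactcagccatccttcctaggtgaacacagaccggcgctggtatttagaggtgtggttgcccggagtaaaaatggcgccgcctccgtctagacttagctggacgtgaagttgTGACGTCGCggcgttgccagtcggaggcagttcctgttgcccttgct
The Psmb8 window held 1 TTCNNNGAA match, which began 97 bases before the start. The Psmb9 window held a CCAAT match on the opposite strand 8 bases before the start and a GC box at 55 bases. It covers all 225 bases between Psmb9 and Tap1, which are transcribed away from each other, and the first 25 bases of Tap1. The Psmb5 window held a TGACNNNGC match at 47 bases. No matches overlapped in these windows. RefSeq promoters were found for 42 of the 50 genes. TTCNNNGAA was in 4.76% of them (Psmb8 and Psmg1) and in 7.18% of all 27025 promoters. The interferon-stimulated element core was in 7.14% (Psmb3, Psmd4 and Psmd9) against 3.04% of all promoters, and TGACNNNGC in 11.9% against 10.1%. CCAAT was in 33.3% against 34.5%, and the GC box in 52.4% against 32.9%. A match is a description of these letters and does not show binding.

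Library totals ran from 16560649 to 17804039 estimated counts, of which the 50 genes took 0.243% (Hy3) to 0.317% (Hy1). The C libraries were tabulated with another gene set (18713 genes with a value) than the HE and Hy libraries (17956 genes). A difference between C and another group therefore cannot be told apart from this separate tabulation, which applies to every comparison with C given here. The 4 markers of alveolar type 2 cells, which make the surfactant of the lung, summed to 16741 to 23945 CPM in HE, 12066 to 24698 CPM in Hy and 20012 to 23464 CPM in C, so the lung label held in all. Hy3 stood apart from the other Hy libraries. The summed CPM of 3 red cell genes (Hba-a1, Hbb-bs and Alas2) was 36631 there, against 692 to 8434 in the other 9 libraries. Neutrophil markers (8 genes) summed to 2673 CPM in Hy4 and 1545 CPM in Hy2, against 91.9 to 258 CPM in the other 8 libraries. Cardiac muscle markers (5 genes) were highest in HE3, Hy4 and C1 within each group, at 1370, 2058 and 1258 CPM, against 41.5 to 566 CPM in the other 7 libraries. In whole lung, fewer cells of a type and less RNA per cell cannot be told apart.

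The immunoproteasome genes were the class that stood highest over C. Psmb8, the chymotrypsin-like subunit known as LMP7, and Psmb9, the subunit known as LMP2, which takes the place of the caspase-like Psmb6, rose in both comparisons with C, and Psmb10, the trypsin-like subunit MECL-1, did not pass the test in either. Each rise was over 1.6-fold, and none of the 3 genes differed between HE and Hy at an adjusted p below 0.05. Genes were called with edgeR's quasi-likelihood test, Benjamini-Hochberg adjusted over all 14766 genes tested, and adjusted p-values below come from it unless another tool is named.

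Psmb8 had 91.8, 84.9 and 77.5 CPM in HE1 to HE3, 87.1, 105, 68.8 and 70.8 CPM in Hy1 to Hy4, and 49.8, 47.6 and 53.1 CPM in C1 to C3. Every HE and Hy library lay above every C library, and HE and Hy overlapped. The log2 fold change was 0.75 (95% interval 0.40 to 1.12) in HE against C, adjusted p = 0.0128, and 0.72 (0.38 to 1.06) in Hy against C, adjusted p = 0.00937. These are 1.69-fold and 1.65-fold. HE against Hy gave 0.03 (-0.30 to 0.36). Without Hy2 and Hy4, the libraries with most neutrophil transcripts, Psmb8 was the one proteasome gene still called higher in Hy than in C. Neither call held in the fit that left out HE3, Hy4 and C1 (0.81 in HE, adjusted p = 0.0761, and 0.79 in Hy, adjusted p = 0.0791), and the call in HE was lost without C2 (0.72, adjusted p = 0.0541).

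Psmb9 had 57.6, 50.04 and 33.0 CPM in HE, 48.3, 51.9, 29.3 and 41.9 CPM in Hy, and 26.7, 25.3 and 25.0 CPM in C. HE3 and Hy3 were the lowest of their groups and the closest to C, which they did not overlap. The log2 fold change was 0.87 (0.35 to 1.39) in HE against C, adjusted p = 0.0288, and 0.74 (0.25 to 1.23) in Hy against C, adjusted p = 0.0351. HE against Hy gave 0.13 (-0.35 to 0.61). The Psmb9 calls were less stable than those of Psmb8. The call in Hy held in 13 of 24 settings and that in HE in 17 of 23. It was lost in both on leaving out any 1 C library, with adjusted p from 0.0736 (HE, without C1) to 0.107 (Hy, without C3). In Hy it was also lost without Hy1 (0.0679), Hy2 (0.0828) or Hy4 (0.0661), and in HE without HE1 (0.101) or HE2 (0.0925).

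Psmb10 had 77.9, 68.6 and 57.1 CPM in HE, 79.2, 78.8, 38.1 and 65.9 CPM in Hy, and 41.3, 43.9 and 53.7 CPM in C. All 3 HE libraries lay above C, whereas Hy3 was the lowest of all 10 libraries and the other Hy libraries were above every C library. The log2 fold change was 0.55 (-0.004 to 1.11) in HE against C, adjusted p = 0.141, and 0.50 (-0.02 to 1.02) in Hy against C, adjusted p = 0.139. HE against Hy gave 0.05 (-0.47 to 0.57). Without Hy3 the values were 0.53 with an adjusted p = 0.0238 in HE and 0.68 with an adjusted p = 0.00679 in Hy. With only HE and C in the fit it passed in HE (0.52, adjusted p = 0.0328), and without Hy2 and Hy4 it was 0.32 in Hy.

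Leukocytes hold much immunoproteasome, so leukocyte markers are given beside these genes. The 8 markers Ptprc, Coro1a, Laptm5, Cd52, Cd53, Lcp1, Itgb2 and Tyrobp summed to 498 to 669 CPM in HE, 762 to 1213 CPM in Hy and 614 to 732 CPM in C, and none was at 0 in all libraries. In HE against C, 0 of 8 rose and Ptprc and Cd53 fell, while in Hy against C Coro1a rose and 0 of 8 fell. Of 5 NK cell markers, 4 fell in HE and 2 in Hy, and of 8 neutrophil markers 0 rose in HE and 5 in Hy. Of 6 tested T cell markers, Cd3d rose in Hy, and 0 of 5 B cell markers passed in any comparison. Of 6 macrophage markers, Adgre1 fell in both HE and Hy. The part of these cells in the HE and Hy values was not tested.

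**Figure D1:**
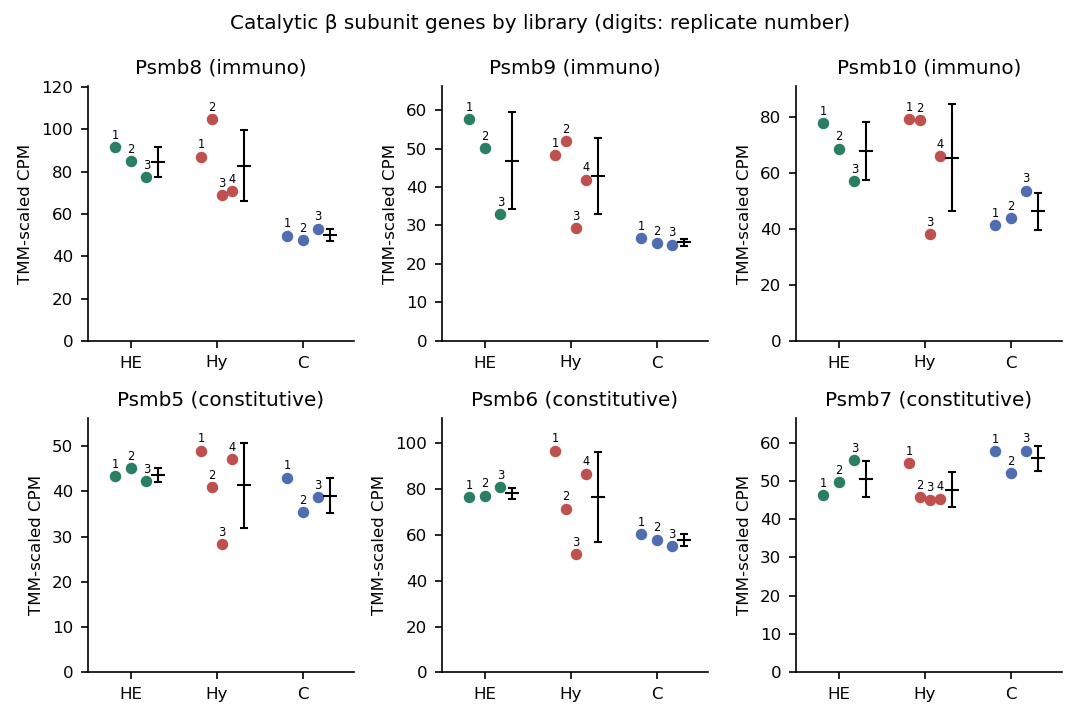
TMM-scaled CPM of the 3 immunoproteasome catalytic subunit genes (top) and of the constitutive subunits they replace (bottom) in each library, with mean and SD beside each group and replicate numbers over the points. All HE and Hy libraries lie above the C libraries in Psmb8 and Psmb9, and Hy3 is the lowest of 10 in Psmb10, Psmb5, Psmb6 and Psmb7.

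The constitutive catalytic subunits did not pass the test in any comparison in the reported fit. Each did under another setting, and the share of all genes called under any of the settings was not counted. Psmb5, the chymotrypsin-like subunit, had 43.4, 45.2 and 42.3 CPM in HE, 49.0, 40.9, 28.3 and 47.1 CPM in Hy, and 43.0, 35.4 and 38.8 CPM in C. Its log2 fold change was 0.16 (-0.25 to 0.57) in HE against C and 0.08 (-0.30 to 0.47) in Hy against C. Psmb6, the caspase-like subunit, had 76.5, 77.1 and 80.9 CPM in HE, 96.7, 71.4, 51.6 and 86.7 CPM in Hy, and 60.4, 57.9 and 55.1 CPM in C. HE lay wholly above C, and Hy did so save for Hy3. The values were 0.43 in HE against C (adjusted p = 0.135) and 0.41 in Hy against C (adjusted p = 0.123), and without Hy3 Psmb6 passed in both, at 0.42 (adjusted p = 0.0168) and 0.54 (adjusted p = 0.00421). Psmb7, the trypsin-like subunit, had 46.3, 49.7 and 55.4 CPM in HE, 54.6, 45.8, 45.1 and 45.4 CPM in Hy, and 57.7, 52.1 and 57.8 CPM in C. It was -0.15 in HE against C (adjusted p = 0.411) and -0.23 in Hy against C (adjusted p = 0.155). In Hy Psmb7 was called lower on library totals without scaling factors (-0.37, adjusted p = 0.0450) and with an offset for transcript length (-0.49, adjusted p = 0.0199), also with the replicate block added (-0.43, adjusted p = 0.0327). In HE it was called lower with the length offset (-0.45, adjusted p = 0.0403). Psmb5 was called lower in Hy with that offset (-0.29, adjusted p = 0.0258). Psmb6 came with it to 0.0027 in HE (adjusted p = 0.988) and -0.0069 in Hy (adjusted p = 0.956).

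The ratio of an immunoproteasome gene to the gene it replaces, taken within a library, needs no scaling between libraries. It is not free of the trend with transcript length described below, and no offset was applied. Psmb8 and Psmb5 have transcripts of 1628 and 899 bases, Psmb9 and Psmb6 of 1352 and 798, and Psmb10 and Psmb7 of 1311 and 1160. As log2 of the counts plus 0.5, Psmb8 over Psmb5 was 0.95 ± 0.11 in HE (SD, n = 3), 1.02 ± 0.37 in Hy (n = 4) and 0.36 ± 0.13 in C (n = 3). As plain ratios, Psmb8 was 1.83 to 2.11 times Psmb5 in HE, 1.504 to 2.56 times in Hy and 1.16 to 1.37 times in C, so both HE and Hy lay apart from C. Psmb9 over Psmb6 was -0.78 ± 0.46 in HE, -0.83 ± 0.27 in Hy and -1.17 ± 0.03 in C. Hy did not overlap C, but HE3, at -1.29, was the lowest of all 10 libraries. Psmb10 over Psmb7 was 0.42 ± 0.36 in HE, 0.40 ± 0.45 in Hy and -0.28 ± 0.19 in C. Here HE lay above C, and Hy3 fell among the C libraries at -0.24.

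By exact two-sided permutation tests over libraries, the differences of HE from C were 0.59 ± 0.10 (SE) for Psmb8 over Psmb5 (p = 0.1), 0.39 ± 0.27 for Psmb9 over Psmb6 (p = 0.4) and 0.70 ± 0.23 for Psmb10 over Psmb7 (p = 0.1). Those of Hy from C were 0.65 ± 0.20 (exact p = 0.0571), 0.34 ± 0.13 (exact p = 0.0571) and 0.68 ± 0.25 (exact p = 0.114). Over single libraries left out, the difference for Psmb9 over Psmb6 was 0.21 (without HE1) to 0.65 (without HE3) in HE, and 0.21 (without Hy2) to 0.41 in Hy. The two-sided p was the smaller tail doubled. Counted so, the smallest p it can give is 0.1 for 3 against 3 and 0.0571 for 3 against 4, so no ratio could pass this test at 0.05. HE against Hy gave -0.06 ± 0.19, 0.06 ± 0.30 and 0.02 ± 0.30, with exact p from 0.914 to 1. Adjusted over the 9 tests, p was 0.206 for 5 of the 6 differences from C, 0.6 for Psmb9 over Psmb6 in HE and 1 for HE against Hy.

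**Figure D2:**
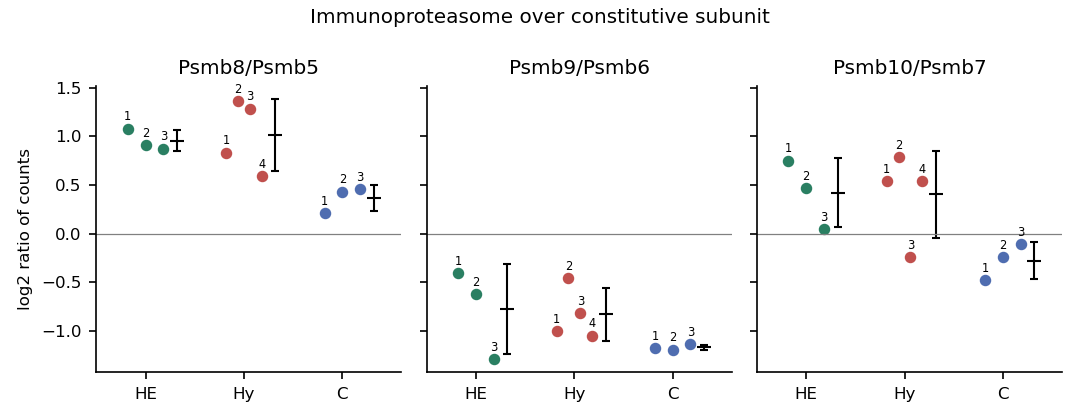
Log2 ratio of the counts of each immunoproteasome gene to those of the constitutive gene it replaces, one point per library, with mean and SD beside each group. For Psmb8 over Psmb5 all HE and Hy libraries lie above the C libraries, whereas HE3 (Psmb9 over Psmb6) and Hy3 (Psmb10 over Psmb7) lie at or below C.

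The comparisons with C address what hypoxia, with and without exercise, changes in the lung, if the prefixes follow the series title. Across all 49 genes tested, 3 rose and 3 fell in HE against C, and 3 rose and 4 fell in Hy against C. That is 12.2% of them in HE and 14.3% in Hy, where the same test called 20.4% and 26.1% of all genes, so the proteasome genes were called no more often than genes at large. By direction, 11.7% of all genes were called higher and 8.66% lower in HE, and 15.1% higher and 11% lower in Hy. The median log2 fold change of the 49 was 0.01 in HE against C and -0.02 in Hy against C, beside 0.02 and 0.03 over all genes tested. Groups did not overlap in 29 of the 49 between HE and C (59.2%, against 51.7% of all genes) and in 12 between Hy and C (24.5%, against 33.6%). Both comparisons use the same C libraries and are not independent of each other. With the replicate number as a block, Hy against C called 2 higher (Psmb8 and Psmb9) and 0 lower, where 7.53% of all genes were called higher and 4.29% lower. Without Hy3, the calls were 10 higher and 6 lower in HE (16.9% and 15.1% of all genes), and 10 higher and 7 lower in Hy (21.6% and 19% of all genes). Without C1, Hy4 and HE3 together there were none in either.

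**Figure D3:**
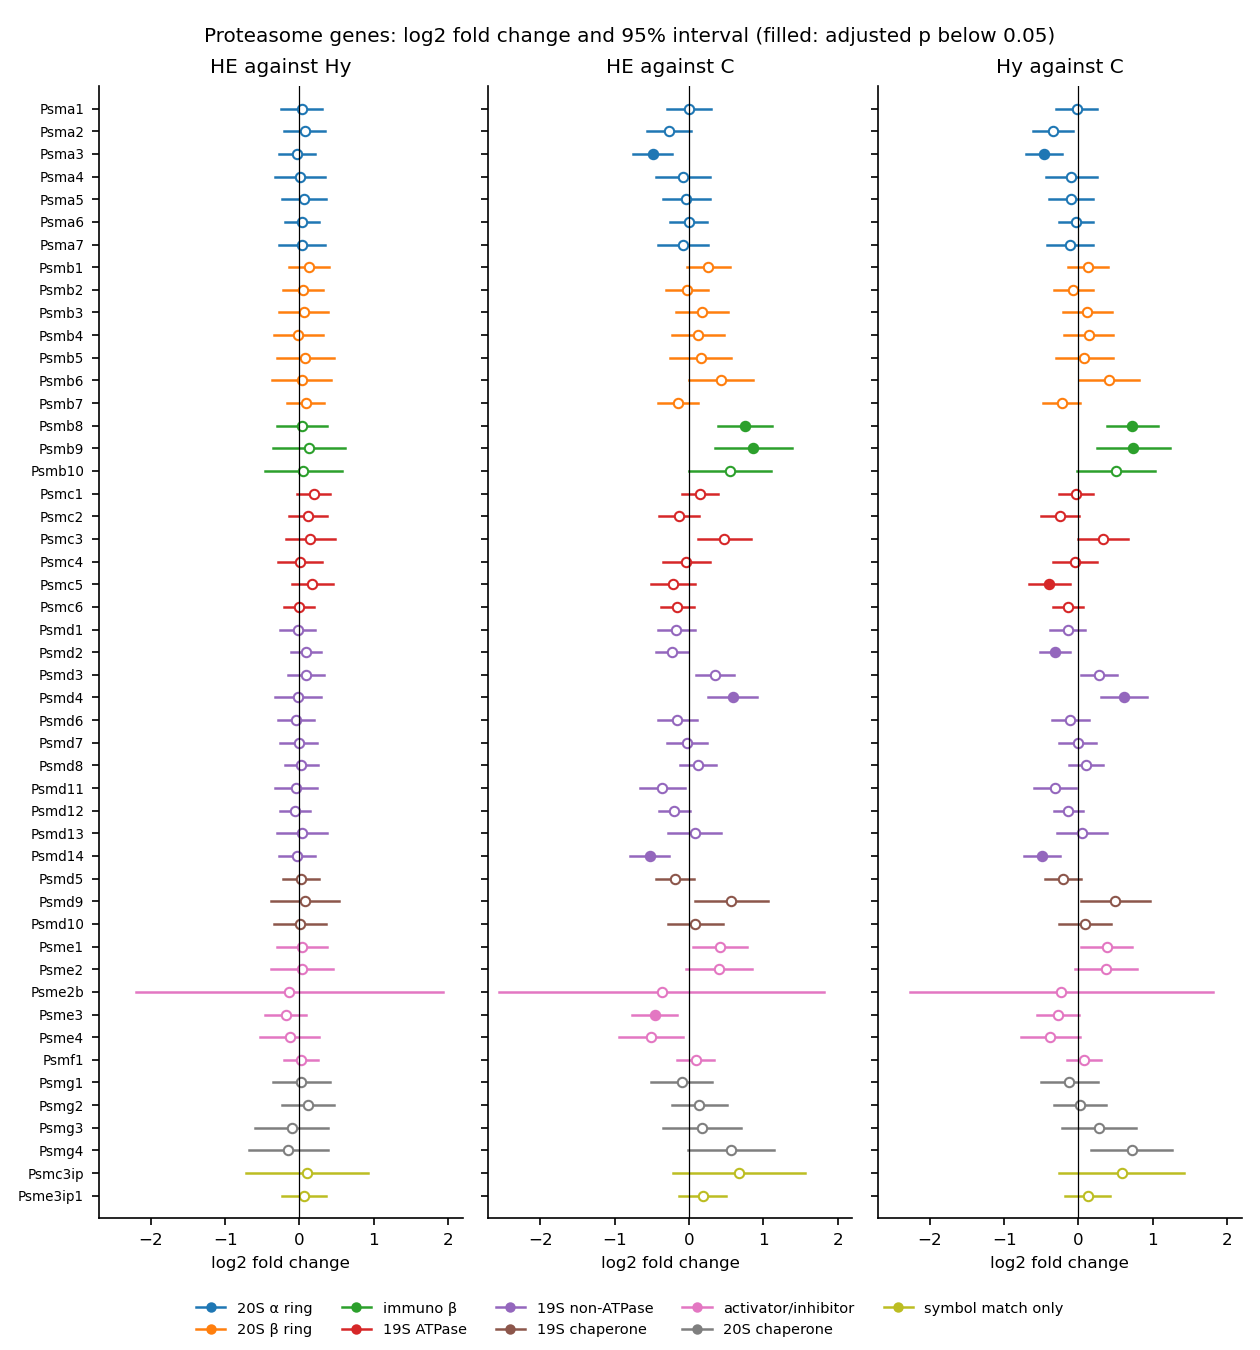
Log2 fold change (horizontal axis) with its 95% interval for each of the 49 proteasome genes tested, coloured by class, in HE against Hy, HE against C and Hy against C. Filled points passed an adjusted p of 0.05; no point is filled in HE against Hy, and Psmb8, Psmb9 and Psmd4 are the filled points right of 0 in both comparisons with C.

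In the alpha ring, Psma3 fell in both comparisons and the other 6 tested genes did not pass in the reported fit. With the length offset, Psma4 and Psma7 were called lower in both comparisons, and Psma2 and Psma5 in Hy. Psma2 was also called lower in Hy with DESeq2, on library totals and without Hy1, and in HE with only the groups compared. Psma3 had 66.0, 60.5 and 63.8 CPM in HE, 76.6, 62.9, 61.2 and 58.5 CPM in Hy, and 89.0, 89.4 and 88.5 CPM in C, with no overlap between C and the others. Its log2 fold change was -0.49 ± 0.12 (SE) in HE against C, adjusted p = 0.0191, and -0.46 ± 0.11 in Hy against C, adjusted p = 0.0148. With the replicate block the value in Hy was -0.42 with an adjusted p = 0.0588, and on leaving out any 1 C library the adjusted p was 0.0511 to 0.0565 in Hy and 0.0603 to 0.0654 in HE. It also lost the call in HE without HE2 (0.0783) or HE3 (0.052). Psma2 was -0.27 in HE (adjusted p = 0.170) and -0.34 in Hy (adjusted p = 0.0650). The remaining alpha genes, Psma1 and Psma4 to Psma7, lay between -0.12 and 0.01 in both. The beta ring outside the catalytic subunits (Psmb1 to Psmb4) lay between -0.07 and 0.26, with none passing in the reported fit. Psmb1 was called higher in HE without Hy3, and Psmb2 lower in both comparisons with the length offset. The class medians were -0.08 in HE and -0.10 in Hy for the alpha ring, 0.16 in HE and 0.12 in Hy for the constitutive beta ring, and 0.75 in HE and 0.72 in Hy for the immunoproteasome genes.

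Among the ATPases of the cap, which unfold the substrate, Psmc5 fell in Hy against C and no other passed in either comparison in the reported fit. Psmc3 was called higher in HE with DESeq2, with only the groups compared, without Hy3 and without Hy4, and in Hy without Hy3. With the length offset, Psmc2 and Psmc4 were called lower in both comparisons and Psmc5 also in HE. Psmc2 was also called lower in Hy on library totals. Psmc5 had 57.4, 64.2 and 54.7 CPM in HE, 60.7, 51.6, 43.6 and 52.3 CPM in Hy, and 66.0, 71.7 and 67.2 CPM in C. Every HE and Hy library lay below C. Its log2 fold change was -0.39 ± 0.12 in Hy against C, adjusted p = 0.0407, and -0.22 ± 0.13 in HE against C, adjusted p = 0.264. The Hy call held in 12 of 24 settings: it was lost with the replicate block (adjusted p = 0.0902) and without any single library other than Hy1 and Hy3, at 0.0502 (without HE2) to 0.132 (without C2). Psmc3 had 136, 140 and 127 CPM in HE, 129, 119, 91.4 and 145 CPM in Hy, and 97.6, 86.5 and 105 CPM in C. It was 0.48 ± 0.16 in HE against C (adjusted p = 0.0604) and 0.33 ± 0.15 in Hy against C (adjusted p = 0.131). Per kilobase of transcript it was the most abundant ATPase in HE and Hy, at 82.0 and 74.0 CPM per kb, while Psmc1 was so in C, at 69.1 CPM per kb.

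Among the non-ATPase subunits, Psmd4 rose and Psmd14 fell in both comparisons, and Psmd2 fell in Hy. Psmd4, the ubiquitin receptor known as Rpn10, had 107, 125 and 107 CPM in HE, 121, 112, 89.8 and 137 CPM in Hy, and 74.9, 74.0 and 76.8 CPM in C. C did not overlap the other groups. The log2 fold change was 0.59 ± 0.15 in HE against C, adjusted p = 0.0229, and 0.61 ± 0.14 in Hy against C, adjusted p = 0.0129. With the replicate block it was 0.51 in Hy, adjusted p = 0.0535. The call was lost in Hy without C2 (0.0541), and in HE without any 1 C library (0.0714 to 0.0773), HE1 (0.0512) or HE2 (0.0895). Adrm1, another ubiquitin receptor of the cap, which the symbol rule leaves out, also rose, by 0.50 in HE (adjusted p = 0.0421) and 0.60 in Hy (adjusted p = 0.0153).

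Psmd14, the deubiquitinase known as Rpn11, had 25.0, 22.2 and 28.2 CPM in HE, 27.0, 25.6, 24.8 and 25.7 CPM in Hy, and 38.0, 36.6 and 34.1 CPM in C. The HE and Hy libraries lay within 22.2 to 28.2 CPM and all C libraries above 34. The log2 fold change was -0.53 ± 0.12 in HE against C, adjusted p = 0.0140, and -0.49 ± 0.11 in Hy against C, adjusted p = 0.0110. With the replicate block it was -0.49 in Hy with an adjusted p = 0.0528. In HE the call was lost without C1 (0.0559), C2 (0.0538) or HE2 (0.0614). Psmd2, a large scaffold of the cap known as Rpn1, which also binds ubiquitin, had 124, 120 and 124 CPM in HE, 119, 111, 109 and 123 CPM in Hy, and 146, 144 and 142 CPM in C. Its groups did not overlap C. It was -0.23 ± 0.10 in HE against C (adjusted p = 0.116) and -0.32 ± 0.09 in Hy against C (adjusted p = 0.0277). In Hy it lost the call with the replicate block (0.0767), without any 1 C library (0.0815 to 0.0897) and without Hy2 (0.0648). In HE it was called lower with DESeq2, on library totals, with only the groups compared and without Hy3.

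The other 8 non-ATPase subunits did not pass in the reported fit. Psmd3, Psmd6, Psmd11 and Psmd12 did under another setting, without a count of how many of all genes do so. Psmd3 was called higher in HE with DESeq2, with only the groups compared, without Hy3, without Hy4, and without both Hy2 and Hy4. Psmd11 was called lower in HE and Hy on library totals and without Hy3, and in HE with only the groups compared. With the length offset, Psmd6 was called lower in both and Psmd12 in HE. Psmd3 lay above C without overlap in both groups, at 118, 113 and 109 CPM in HE, 101, 99.6, 103 and 124 CPM in Hy, and 90.7, 81.8 and 93.4 CPM in C. Its log2 fold change was 0.35 in HE against C (adjusted p = 0.0557) and 0.27 in Hy against C (adjusted p = 0.0921). Psmd11, a lid subunit, had 70.1, 62.7 and 70.4 CPM in HE, 64.1, 66.4, 87.4 and 62.4 CPM in Hy, and 88.5, 85.7 and 86.6 CPM in C. Hy3 alone of the 7 HE and Hy libraries was at the level of C. The values were -0.36 in HE (adjusted p = 0.0883) and -0.31 in Hy (adjusted p = 0.0964). The class median was -0.16 in HE and -0.11 in Hy.

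The activators split. Psme1 and Psme2, the interferon-inducible subunits of PA28, were higher on average in HE and Hy than in C, and Psme3, the nuclear PA28 gamma, and Psme4, PA200, were lower. Of these, Psme3 in HE alone passed in the reported fit. Psme1 had 154, 135 and 143 CPM in HE, 175, 153, 111 and 123 CPM in Hy, and 104, 107 and 113 CPM in C. Its log2 fold change was 0.41 in HE against C (adjusted p = 0.0991) and 0.38 in Hy against C (adjusted p = 0.0943). Psme2 had 88.5, 79.7 and 87.0 CPM in HE, 111, 92.5, 59.9 and 69.1 CPM in Hy, and 62.2, 67.3 and 64.0 CPM in C. It was 0.40 in HE (adjusted p = 0.179) and 0.37 in Hy (adjusted p = 0.173). In both genes every HE library exceeded C and Hy3 was at the level of C. Without Hy3, both passed in Hy, Psme1 at 0.46 (adjusted p = 0.0193) and Psme2 at 0.48 (adjusted p = 0.0315), and Psme1 passed in HE, at 0.40 (adjusted p = 0.0440). With only HE and C in the fit, both passed in HE (adjusted p = 0.0124 and 0.0134). Psme2 in Hy came to 0.19 without Hy1. At 129 in HE, 126 in Hy and 97.2 in C, Psme1 had the highest CPM per kb of all the members in HE and Hy.

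Psme3 had 62.04, 64.9 and 63.5 CPM in HE, 74.6, 64.7, 88.1 and 61.6 CPM in Hy, and 86.3, 87.0 and 88.5 CPM in C. It fell by 0.46 ± 0.13 on the log2 scale in HE against C, adjusted p = 0.0382. In Hy against C it was -0.27 ± 0.13, adjusted p = 0.131. The HE call was lost without any 1 of the HE or C libraries, at an adjusted p of 0.0909 (without HE3) to 0.111 (without C3). Psme4 had 51.2, 49.98 and 61.0 CPM in HE, 47.7, 55.5, 82.3 and 51.6 CPM in Hy, and 81.5, 73.6 and 75.7 CPM in C. It was -0.51 ± 0.19 in HE (adjusted p = 0.0852) and -0.38 ± 0.18 in Hy (adjusted p = 0.140). Hy3 was again at the level of C in both genes, and without it both passed in Hy, at -0.39 (adjusted p = 0.00770) and -0.59 (adjusted p = 0.00290), and Psme4 passed in HE (-0.52, adjusted p = 0.00663). Psmf1, the inhibitor PI31, was 0.09 in HE and 0.07 in Hy, with all libraries between 26.8 and 33.6 CPM.

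No assembly chaperone passed in the reported fit. Psmg4, Psmd9, Psmd5 and Psmg1 did under other settings, and how many of all genes pass under any setting was not counted. Psmg4, a chaperone of the core, was the nearest in Hy against C, at 0.72 (0.17 to 1.26), adjusted p = 0.0545, and had from 67 to 160 counts in a library. It had 8.57, 5.21 and 7.67 CPM in HE, 9.55, 7.72, 5.80 and 8.66 CPM in Hy, and 5.41, 3.90 and 5.17 CPM in C. HE2 lay within C and the Hy libraries all above it. Psmg4 was called higher in Hy than in C with DESeq2, without HE2 and without Hy3. Psmd9, a chaperone of the cap's ATPases, was 0.57 in HE (adjusted p = 0.0925) and 0.50 in Hy (adjusted p = 0.101). It was called higher in Hy without Hy3, and in HE without Hy3, without Hy4, without both Hy2 and Hy4, and with only the groups compared. Psmg1 to Psmg3, Psmd5 and Psmd10 lay between -0.21 and 0.28. In Hy against C, Psmd5 was called lower on library totals and Psmg1 with the transcript length offset. Psmc3ip had from 24 to 81 counts in a library and an interval from -0.26 to 1.42 in Hy against C, and Psme3ip1 was 0.18 in HE and 0.12 in Hy.

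HE against Hy addresses what exercise changes in hypoxic mice, if the prefixes are read that way, and it sets no C library against another group. None of the 49 genes differed at an adjusted p below 0.05, and 0 had an unadjusted p below 0.05. edgeR called 0 of all 14766 genes (0%), with 4.97% at an unadjusted p below 0.05, and DESeq2 called 48 genes, 0 of them proteasome genes. The log2 fold changes ran from -0.19 (Psme3) to 0.19 (Psmc1). For 41 of the 49 genes the 95% interval lay within -0.5 to 0.5, and for 48 within -1 to 1, so differences over 2-fold were outside the interval for all but Psme2b. All 31 constitutive subunits of core and cap had intervals within -0.5 to 0.5. The smallest p-values were those of Psmc1, Psme3 and Psmc5. Psmc1 had 114, 132 and 120 CPM in HE, 112, 109, 95.2 and 113 CPM in Hy, and 107, 109 and 114 CPM in C. It was the 1 gene of the 49 (2.04%) in which HE and Hy did not overlap, where 4.5% of all genes did not, and its log2 fold change was 0.19 (-0.04 to 0.41). Psmc5 was 0.17 (-0.10 to 0.45) and Psme3 was -0.19 (-0.47 to 0.09).

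Much of the spread within Hy came from Hy3 and Hy1. Hy3 was the lowest Hy library in 38 of the 49 genes and the lowest of all 10 libraries in 27, among them all 7 constitutive beta genes. Hy1 was the highest Hy library in all 14 constitutive genes of the core. The mean over these 14 genes of log2(CPM + 0.5) minus the gene's mean over all libraries was 0.23 in Hy1, -0.00 in Hy2, -0.30 in Hy3 and -0.06 in Hy4. It was -0.01 to 0.07 in HE and -0.04 to 0.07 in C. Over the 17 tested subunits of the cap it was -0.17 in Hy3 and -0.03 to 0.05 in the other 9 libraries. The 3 immunoproteasome genes gave -0.03 to 0.47 in HE, -0.33 to 0.49 in Hy and -0.51 to -0.37 in C. In HE the lowest of each of these 3 genes was HE3.

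**Figure D4:**
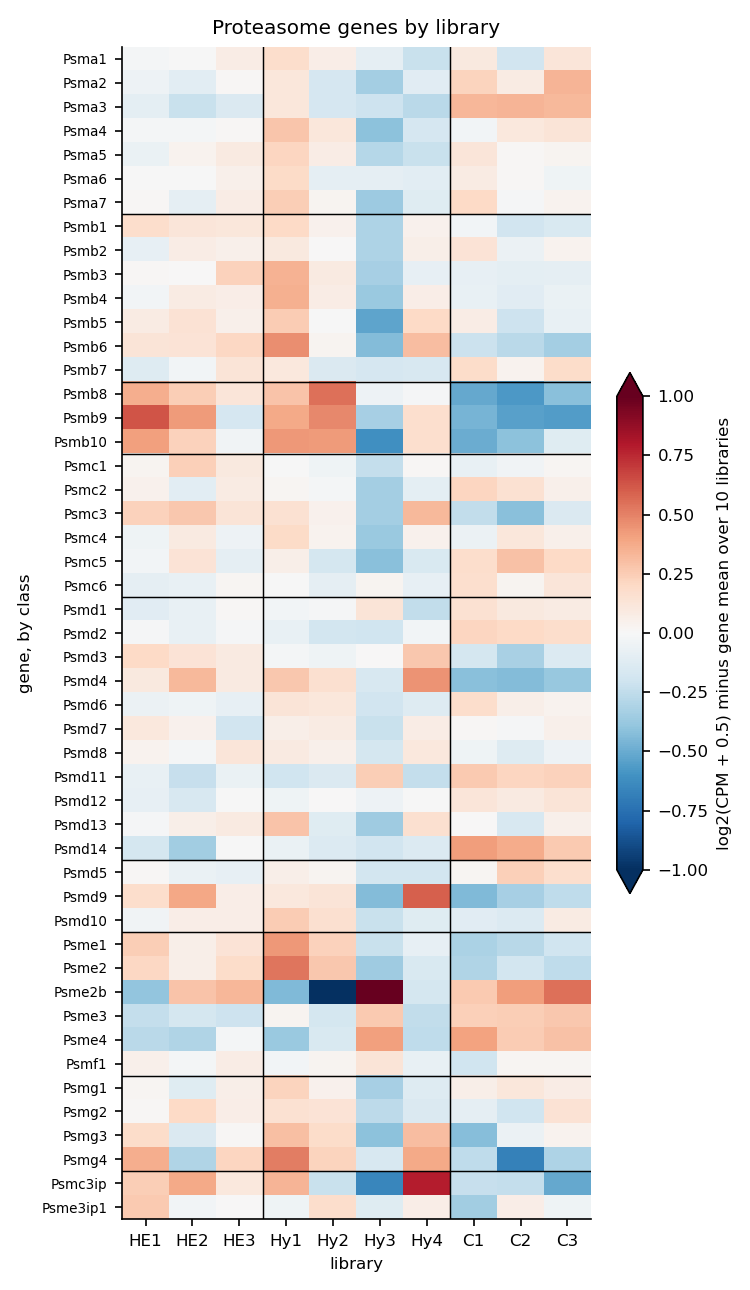
Deviation of each proteasome gene in each library from its mean over the 10 libraries, on a log2(CPM + 0.5) scale (red above, blue below), with genes in rows by class and libraries in columns as HE, Hy and C. Hy3 is blue through most of the core subunits and red in Psmd11, Psme3 and Psme4, and the immunoproteasome genes are blue in all C libraries.

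Proteasome transcripts are short, with a median of 1435 bases, and 32 of the 49 lie in the shortest of 5 equal bins of the genes tested (up to 1706 bases). Across all genes the fold changes against C varied with transcript length. The median log2 fold change of the shortest bin was 0.27 in both HE against C and Hy against C, and that of the longest bin was -0.20 in HE and -0.17 in Hy. In HE against Hy these medians were 0.02 and -0.05. Across the 49 genes, which are not independent replicates, Spearman's rho of fold change with length was -0.35 in HE against C, -0.36 in Hy against C and -0.04 in HE against Hy.

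With an offset for transcript length, an alternative chosen after seeing the data, the constitutive subunits moved down, and the 3 immunoproteasome genes were lower than without it but above 0. Psmb8, Psmb9 and Psmd4 were then the genes called higher in HE against C, at 0.56, 0.61 and 0.32 (adjusted p = 0.0204, 0.0399 and 0.0403). In Hy against C, Psmb8 (0.55, adjusted p = 0.0141) and Psmd4 (0.37, adjusted p = 0.0161) were called and Psmb9 was not (0.49, adjusted p = 0.0581). Psmb10 came to 0.28 in HE (adjusted p = 0.292) and 0.23 in Hy (adjusted p = 0.340), against 0.55 and 0.50 without the offset. With the replicate block as well, Psmb8 was the 1 gene called higher in Hy. The genes called lower were 12 in HE and 15 in Hy, against 3 and 4 without the offset, and the test with the offset called 11% of all genes lower in HE and 13.9% in Hy (12.6% and 15.6% higher). Psma3 and Psmd14 were among the lower genes in both. Of the 31 constitutive subunits of core and cap, 11 were lower in HE and 14 in Hy, and their median was -0.27 in HE and -0.28 in Hy, against -0.03 and -0.07 without the offset. Psme1 and Psme2 came to 0.09 and 0.03 in HE and to 0.09 and 0.02 in Hy. Whether length itself or another property sets these differences was not tested.

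**Figure D5:**
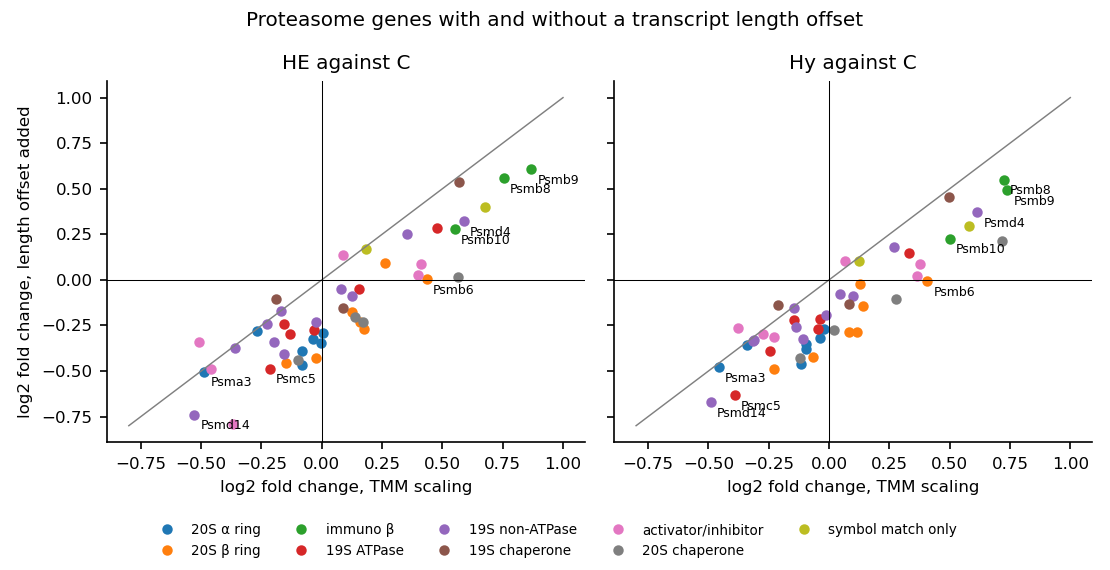
Log2 fold change of each proteasome gene with TMM scaling alone (horizontal) and with a transcript length offset added (vertical), in HE against C and Hy against C, coloured by class; the grey line marks equal values. Most genes lie below the line, and Psmb8, Psmb9 and Psmd4 stay above 0 on both axes.

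Genes around the proteasome were described by lists chosen with earlier results of these data known. Of 14 genes of interferon-inducible antigen processing, Tap2, Tapbp and H2-K1 rose and Erap1 and B2m fell in HE against C, and Irf1, Tap1, Tap2 and H2-K1 rose and the same pair fell in Hy against C. Tap2, which lies next to Psmb8, had 160, 154 and 117 CPM in HE, 126, 166, 144 and 146 CPM in Hy, and 73.3, 70.8 and 73.7 CPM in C. It rose by 0.98 in HE (adjusted p = 0.00330) and by 1.00 in Hy (adjusted p = 0.00174). Tap1 rose by 1.00 in Hy (adjusted p = 0.0306) and was 0.94 in HE (adjusted p = 0.0524). All 4 neighbouring genes on chromosome 17 were thus called higher in Hy and 3 of them in HE, where 15.1% and 11.7% of all genes were. The stretch was described with the Psmb8 and Psmb9 calls known, so these counts are not a test of it. The Psmb9 call in Hy held in 13 of 24 settings. B2m, the light chain of MHC class I, went the other way, at -1.04 in HE (adjusted p = 0.0103) and -1.18 in Hy (adjusted p = 0.00336). The list medians were 0.38 in HE and 0.46 in Hy.

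Of 14 proteasome partners outside the symbol rule, Adrm1, Akirin2 and Ubqln2 rose in both groups, Usp14 fell in both and Ecpas fell in Hy. Of 7 genes of the transcription factors that drive proteasome genes and of their processing, none passed in HE, and Maff rose and Nfe2l2 fell in Hy. Nfe2l1, the factor that induces proteasome subunits when the protease is inhibited, was 0.26 in HE (adjusted p = 0.238) and 0.18 in Hy (adjusted p = 0.358). Of 9 genes of p97 and its cofactors, Ubxn1 rose in both, Ubxn7 fell in HE, and Vcp and Ubxn4 fell in Hy. The COP9 signalosome, related in structure to the lid of the cap, had Cops7b higher in both, with 3 of 9 lower in HE (Cops2, Cops3 and Cops8) and 2 in Hy (Cops2 and Cops3). The cytosolic chaperonin CCT, another complex of many different subunits, had 0 of 8 higher in either, 5 lower in HE and 7 lower in Hy. The CCT median was -0.53 in HE and -0.52 in Hy, against 0.01 and -0.02 over the proteasome genes. With the length offset the proteasome median was -0.23 in HE and -0.22 in Hy, and the lists are given without that offset. No gene of these 6 lists was called in HE against Hy.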

How the data were processed

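The members and gene lists were chosen with earlier results of these data known. Results of some genes of the lists are not reported here. RNA was selected with oligo(dT) and primed with random hexamers, per the labels' protocols, which do not state strand. The submitters' processing notes name HISAT2 2.0.4, Bowtie2 2.2.5, RSEM 1.2.12, DESeq 1.4.5 and build GRCm38.p6 with no roles. The files hold estimated counts for each gene, which the authors deposited without normalising, per the file headers. They were rounded, and genes with a value in all 10 files were fitted together (edgeR 4.0.16, R 4.3.3, TMM factors, robust quasi-likelihood, filter on low counts by group, 7 residual degrees of freedom) with Benjamini-Hochberg adjustment and a threshold of 0.05. Total counts per library were 16560649 to 17804039, and the common biological coefficient of variation over all genes tested was 26.9%. Replicate spread and counting error were not set against each other gene by gene. The fit was also run on simulated counts with less scatter than these libraries and far fewer genes changed. That run checked the code and does not bear on the calls given here. Ratios were tested over libraries with exact permutation tests that went through every arrangement of the libraries and doubled the smaller tail.

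Values per library are given for catalytic subunits, activators and called genes (the 3 with the smallest p per class and direction). Those of Psmc3, Psmd3, Psmd11, Psmg4 and Tap2 were added after their values were seen. Alternatives were DESeq2 1.42.0, limma-voom (limma 3.58.1), RLE factors, library totals, other filters, only the groups compared, genes that overlap no other, all genes of HE and Hy, each library left out, sets of libraries left out, the replicate block and, added after seeing the data, an offset for the longest principal transcript of GENCODE M21. Same-numbered libraries of C and Hy had correlated deviations (0.12, 0.25 and 0.13), but only 3 of 7 correlated best with their own number. The labels state no pairing. The reported fit and its p-values use no pairing, and the replicate number was a block in alternatives only. Hy4 has no partner.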

Additional observations from a re-analysis of the deposited data

Results flagged for a closer look

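In 5 of 52 values tested within Hy, 1 library lay far from the other 3 by Dixon's test, which chance gives in about 1 in 20. Psma6 had 73.7 CPM in Hy1 against 59.9 to 60.7 in the others, and Psmb7 had 54.6 CPM in Hy1 against 45.1 to 45.8. Psmd11 had 87.4 CPM in Hy3 against 62.4 to 66.4, and Psmd7, a lid subunit, had 73.7 CPM in Hy3 against 89.7 to 91.3. Psmd3 had 124 CPM in Hy4 against 99.6 to 103.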

How the results depend on the processing

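For single genes, 40 fold changes were recomputed under up to 23 alternatives each, and 12 of them changed sign under at least 1. No alternative called a proteasome gene in HE against Hy.

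Each count of called proteasome genes stands beside the share of all genes called the same way. Genes called higher in HE against C numbered 5 with DESeq2 (14.3% of all genes), 10 with only the groups compared (18.4%), 5 without Hy2 and Hy4 (11.1%) and 0 without C1, Hy4 and HE3 (2.32%), against 3 in the reported fit (11.7%). Those lower numbered 6 on library totals (12.2%), 7 with only the groups compared (18.9%), 12 with the length offset (11%) and 0 without C1, Hy4 and HE3 (1.06%), against 3 (8.66%). In Hy against C, those higher numbered 1 with the length offset and replicate block (9.44%), 1 without Hy2 and Hy4 (4.59%) and 0 without C1, Hy4 and HE3 (1.53%), against 3 (15.1%). Those lower numbered 10 on library totals (18.6%), 2 with only the groups compared (7.26%), 0 with the replicate block (4.29%), 15 with the length offset (13.9%), 8 with the offset and the block (7.55%), 0 without Hy2 and Hy4 (2.6%) and 0 without C1, Hy4 and HE3 (0.909%), against 4 (11%). Leaving out each library in turn gave from 0 higher (without C2, 5.04%) to 10 higher (without Hy3, 16.9%) in HE. Those lower in HE ran from 0 (2.31% to 3.68%) to 6 (without Hy3, 15.1%). In Hy it gave from 1 higher (without C2, 7.18%) to 10 higher (without Hy3, 21.6%). Those lower in Hy ran from 1 (4.06% to 5.56%) to 7 (without Hy3, 19%). The smaller sets of libraries hold fewer samples; for the other settings the cause was not tested. Same-numbered libraries of HE and C (correlations -0.10, 0.19 and -0.26) and of HE and Hy (-0.036, 0.059 and -0.017) share only a number, and 1 of 6 HE and C and 0 of 7 HE and Hy libraries correlated best with their own. There the replicate block called 3 higher and 3 lower in HE against C and 0 in HE against Hy, and beyond the calls given beside the results it changed none of a named gene.

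Library totals moved the median of all genes to -0.07 in HE against C and -0.11 in Hy against C, from 0.02 and 0.03. All-gene calls were then 1302 higher and 1798 lower in HE (1734 and 1279 with TMM), and 1591 higher and 2740 lower in Hy (2225 and 1625).

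Psmb5 in Hy against C changed sign on library totals (-0.057), with the block (-0.0099), with the length offset (-0.29, adjusted p = 0.0258), with both (-0.31) and without Hy2 and Hy4 (-0.033), and ranged from -0.012 to 0.21 over single libraries left out. Psmb6 in Hy came to -0.0069 with the offset and -0.026 with offset and block, and Psmb5 in HE against C to -0.23 with the offset. In HE against Hy, the block gave -0.028 for Psmb8, -0.012 for Psme1, -0.019 for Psme2 and -0.017 for the log2 ratio of Psmb9 to Psmb6. Without C1, Hy4 and HE3 it was -0.014 for Psmb7, -0.018 for Psme1 and -0.063 for Psme2, and without Hy2 and Hy4 -0.0037 for Psme2. Over single libraries left out, HE against Hy ranged from -0.069 to 0.17 for Psmb5, -0.12 to 0.16 for Psmb6, -0.054 to 0.16 for Psmb8, -0.046 to 0.33 for Psmb9, -0.14 to 0.16 for Psmb10, -0.067 to 0.16 for Psme1, -0.10 to 0.20 for Psme2 and -0.23 to 0.063 for Psme4. The log2 ratios ranged from -0.20 to 0.053 (Psmb8 to Psmb5), -0.13 to 0.32 (Psmb9 to Psmb6) and -0.20 to 0.20 (Psmb10 to Psmb7).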
